A study of Mus musculus with 12 samples.

Results

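The comparison described here is the main effect of the anti-PD-1 antibody in MC38 tumors. The 6 tumors of mice given anti-PD-1 were set against the 6 tumors of mice that did not receive it. All 12 sequenced tumors entered, and 13563 of the 18211 genes in the table had enough reads to be tested. The tumors were assigned to the arms by their treatment labels. MC38 is a mouse colon adenocarcinoma line, and its cells were injected under the skin of C57BL/6 mice, which were female and 5 weeks old when bought. The 6 tumors without the antibody were 3 CK tumors (vehicle) and 3 PB-020 tumors, and the 6 with it were 3 anti-PD-1 tumors and 3 PB-020+anti-PD-1 tumors (the combination). PB-020, which inhibits the receptor of IGF-1, was taken orally in daily doses of 50 mg/kg, and anti-PD-1 (clone RMP1-14) was injected into the abdomen at 200 μg per mouse on days 9, 12, 15 and 18 counted from the injection of the cells, after the mice had been divided into groups on day 7. PB-020 was present in 3 tumors of each arm and was carried as a covariate. All mice had an intact immune system, and because tumor cells and host are both murine their transcripts were counted together.

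PD-1 is an inhibitory receptor that T cells acquire when they are activated. Its ligands PD-L1 and PD-L2 are carried by tumor and myeloid cells, and their binding lowers signalling through the T cell receptor. Interferon gamma, released by activated T cells and NK cells, acts through a kinase and transcription factor cascade that includes IRF1 and raises antigen presentation genes, chemokines that attract further T cells, and PD-L1 itself. In subcutaneous tumors these transcripts come from a mixture of tumor cells, leukocytes, fibroblasts and vessels.

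Library depth, the sum of expected counts, lay between 16545394 and 17217035. Defining transcripts of simple epithelium were at or near 0 in all tumors, with at most 0.14 FPKM for Krt8, 0.14 for Krt18, 0.54 for Epcam, 0.06 for Cdx2, 0.06 for Vil1 and 0.22 for Muc2. Cdh1 (1.59 to 3.96 FPKM, log2 change with anti-PD-1 0.40, adjusted p = 0.0408) and the intestinal lectin Lgals4 (4.3 to 8.04, −0.46, adjusted p = 0.0173) were detected in all of them. FPKM (fragments scaled to transcript length and library size) is the level used for single tumors throughout. A pair of libraries stood apart. Anti-PD-1 tumor 1 held skeletal muscle transcripts, a summed 847.88 FPKM over the 16 muscle markers tested against 17.39 to 96.65 in the other tumors, and had the highest T cell score of all. CK tumor 3 held neutrophil transcripts, 438.01 FPKM against 11.26 to 44.5, and adipocyte transcripts, 299.27 against 32.79 to 68.82. The part of these tissues in the results below was not tested, and list counts that moved by more than 1.5 times without one of them are given with that value.

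Tumors with anti-PD-1 differed from those without it in many genes by small amounts. Of the 13563 genes tested, 3504 (25.8%) had an adjusted p under 0.05 (edgeR's quasi-likelihood test, Benjamini-Hochberg adjustment), and such genes are called raised or lowered below. The raised genes numbered 1714 (12.6%) and the lowered 1790 (13.2%). Counts of list members below are to be read against these 2 shares. Raised genes moved further. Their median log2 fold change was 0.39, with 268 (15.6%) past a 2-fold change, against −0.29 in lowered genes, of which 106 (5.92%) were past it. The thresholds of the study's methods, more than 1.5-fold at p under 0.05 before adjustment, were reached by 1068 genes (7.87%), 722 higher (5.32%) and 346 lower (2.55%). All 6 tumors with anti-PD-1 lay above all 6 without it in 556 genes (4.1%) and below them in 611 (4.5%), compared in log2 CPM (counts scaled to library size), and the arms of a gene are called separate on that scale.

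At any p, 50.1% of the genes were higher and 49.9% lower. The antibody effect was also measured as 2 contrasts whose tumors share no library. Both came from 1 model of the 4 groups, with the spread of each gene estimated from all 12 libraries. Without PB-020, anti-PD-1 against CK gave 1120 called genes (8.26%), and with PB-020, the combination against PB-020 gave 455 (3.35%). They had 315 genes in common, which is 28.1% of the first set and 69.2% of the second, and all 315 went in the same direction. Of the 1120 genes, 1109 had the same sign in the presence of PB-020, and of the 455, 454 had it in its absence. Across the 13563 genes, which are not independent of each other, the log2 changes of the 2 sets correlated with r = 0.621. A further 2277 genes were called in the main effect and in neither of these 2 contrasts. The counts differed when the spread came from 6 libraries alone. A fit restricted to the CK and anti-PD-1 libraries called 3 genes, and one restricted to the combination and PB-020 libraries called 1519.

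**Figure D1:**
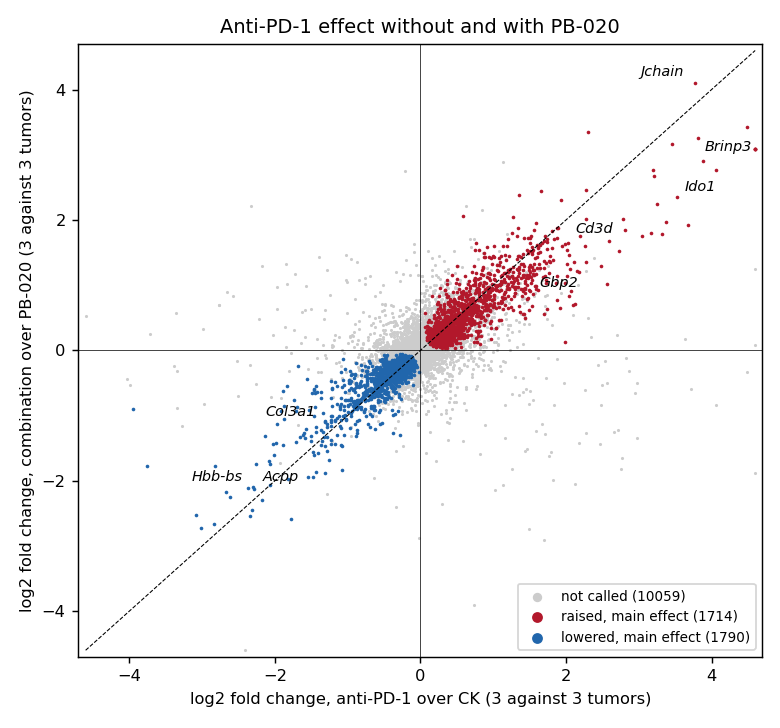
Log2 fold change of each tested gene with anti-PD-1 in tumors without PB-020 (x axis, 3 anti-PD-1 against 3 CK tumors) and with PB-020 (y axis, 3 combination against 3 PB-020 tumors), one point a gene, with genes raised (red) or lowered (blue) in the main effect and 9 points drawn at the axis limit of 4.6. The 1714 raised and 1790 lowered genes have the same sign on both axes, which their choice by the main effect over both axes nearly fixes, against 77% of all 13563 genes.

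No gene departed from additivity at the adjusted threshold. The interaction of anti-PD-1 with PB-020 had 0 called genes with edgeR and with DESeq2, and 310 genes (2.29%) had an unadjusted p under 0.05 with edgeR and 278 with DESeq2. The PB-020 main effect, fitted in the same model, likewise had 0 called genes and 1550 (11.4%) at an unadjusted p under 0.05. Igf1r, the target of PB-020, was at 9.53 to 11.01 FPKM (median 10.78) with anti-PD-1 and at 10.14 to 11.93 (median 10.74) without it. Its ranges overlapped, with a log2 change of −0.05 ± 0.04 (SE, adjusted p = 0.448).

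T cell genes were higher in the tumors with anti-PD-1, as were genes of regulatory T cells and NK cells. The target transcript itself, Pdcd1 (gene 18566, chromosome 1, 94038305 to 94052553 on GRCm38.p6), which encodes PD-1, was at 1.86, 2.93 and 5.32 FPKM (lowest, median and highest of 6) with anti-PD-1 and at 0.79, 0.915 and 1.69 without it. The arms did not overlap, and the highest tumor was anti-PD-1 tumor 1. The log2 change was 1.57 ± 0.26 (SE, adjusted p = 0.00114). The antibody binds the protein, so this transcript does not check whether the drug acted.

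Of the 24 T cell receptor and lineage genes tested, 22 were raised and 0 lowered, against 12.6% raised among all genes, with a median log2 change of 1.37. Cd3d, a signalling chain of the T cell receptor (gene 12500, chromosome 9, 44981769 to 44987052), was at 1.67, 3.04 and 5.74 FPKM with anti-PD-1 and at 0.69, 1.12 and 1.4 without it, a log2 change of 1.83 ± 0.29 (SE, adjusted p = 0.00095). Cd2, an adhesion receptor of T cells, rose by 1.52 ± 0.24 and Cd247, the zeta chain of the receptor, by 1.32 ± 0.22. In all 3 genes the arms were separate. Cd27, a costimulatory receptor, rose by 1.79 ± 0.30 (adjusted p = 0.00117). The CD8 coreceptor gene Cd8a was at 3.84, 5.49 and 10.33 FPKM against 1.86, 2.58 and 3.08, with no overlap and a log2 change of 1.28 ± 0.24. Cd4, also carried by some macrophages and dendritic cells, was at 1.12, 1.79 and 3.96 FPKM against 0.86, 1.07 and 1.59. Its arms overlapped, and its log2 change of 0.85 ± 0.27 (adjusted p = 0.0383) missed the threshold in 9 of the 12 fits that left out 1 library. The list's 2 members that were not called are Tcf7 and Lef1, transcription factors of naive and stem-like T cells. Tcf7 was at 11.59 to 14.68 FPKM with anti-PD-1 and at 12.21 to 13.37 without it (log2 change 0.09 ± 0.06, adjusted p = 0.289), and Lef1 at 0.27 to 1.06 and 0.43 to 0.98 (0.05 ± 0.32, adjusted p = 0.922). Every tumor held more Tcf7 than Cd3d in FPKM, and which cells carried Tcf7 was not tested. In bulk tumors, more cells of a type and more RNA per cell cannot be told apart.

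Inhibitory receptors moved with the T cell genes. Of 12 genes 7 were raised and 0 lowered, with a median log2 change of 0.95. Ctla4, the receptor that competes for B7 ligands, was at 1.42, 3.15 and 4.63 FPKM with anti-PD-1 and at 0.83, 0.98 and 1.36 without it, a log2 change of 1.60 ± 0.23 (SE, adjusted p = 0.000559). Tigit, Lag3 and Havcr2 (which encodes TIM-3) are further inhibitory receptors, and they rose by 1.28 ± 0.22, 1.14 ± 0.21 and 0.76 ± 0.14. Tox, a transcription factor of exhausted T cells, went from a median of 0.19 to 0.565 FPKM (log2 change 1.38 ± 0.29). In none of these 5 genes did a tumor with anti-PD-1 fall within the range of those without it. The ectonucleotidase gene Entpd1 (CD39), at a median of 8.68 against 6.24 FPKM, was not called (0.56 ± 0.22, adjusted p = 0.0804).

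Regulatory T cell genes were raised as well, 7 of 10 with a median of 0.76, against 4 without CK tumor 2, and without anti-PD-1 tumor 1 a further member was lowered. Foxp3, the lineage factor of regulatory T cells, was at 0.62, 0.905 and 1.53 FPKM against 0.24, 0.385 and 0.48, with no overlap and a log2 change of 1.37 ± 0.24 (SE, adjusted p = 0.00157). Tnfrsf9 (4-1BB), a costimulatory receptor also found on activated CD8 T cells, rose by 0.64 ± 0.12, and Ccr8, a chemokine receptor of tumor regulatory T cells, by 1.51 ± 0.50, a call lost in 8 of the 12 fits without 1 library. Lrrc32, which encodes the TGF-beta docking receptor GARP and is also expressed by endothelium, was at a median of 2.2 FPKM against 2.77 and was not called (−0.27 ± 0.13, adjusted p = 0.121).

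Of 12 NK cell genes 7 were raised and 0 lowered, with a median of 1.01. The C-type lectin receptor genes carried most of this. Klrk1 (NKG2D, an activating receptor) was at 2.14, 4.82 and 7.09 FPKM with anti-PD-1 and at 1.21, 1.81 and 2.19 without it (log2 change 1.41 ± 0.20, SE, adjusted p = 0.000597), with arms that were separate in log2 CPM and touched in FPKM. Klre1, Klrc1 and Klrd1, which encode receptors shared by NK cells and CD8 T cells, rose by 1.63 ± 0.25, 1.60 ± 0.24 and 1.33 ± 0.25. Ncr1 and Klrb1c, markers more particular to NK cells, had medians of 1.8 against 0.895 and 1.29 against 0.77 FPKM, with adjusted p of 0.0783 and 0.203. Values of Klrc1 are uncertain where RSEM divided reads between it and close copies of its subfamily.

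The cytotoxic list divided. Of 18 members 9 were raised and 0 lowered, with a median log2 change of 0.78. Ifng, the gene of interferon gamma, was at 1.5, 3.23 and 5.36 FPKM with anti-PD-1 and at 0.72, 0.83 and 1.84 without it, and PB-020 tumor 3 was the only one of the latter to reach the range of the former. Its log2 change was 1.71 ± 0.32 (SE, adjusted p = 0.00214). Tbx21 (T-bet, the factor that drives Ifng) rose by 1.77 ± 0.29, Nkg7, a granule protein, by 1.43 ± 0.26, and Tnfsf10 (TRAIL, a death ligand) by 1.21 ± 0.20. Granzymes and perforin went both ways, and of them Gzma alone was called. Gzma rose by 0.91 ± 0.26, but Gzmb was at 17.27, 26.18 and 39.73 FPKM against 8.54, 19.77 and 23.65 (0.65 ± 0.28, adjusted p = 0.116), and perforin, Prf1, at 6.03, 8.43 and 11.79 against 2.48, 8.31 and 9.27 (0.31 ± 0.33, adjusted p = 0.524). Gzmf had a lower median with anti-PD-1, 75.86 against 117.1 FPKM, and was not called (−0.41 ± 0.48, adjusted p = 0.568). Gzmk had a large but variable change and was not called either (1.63 ± 0.62, adjusted p = 0.07). The list's remaining granzymes changed by −0.30 to −0.50 and were not called. The ranges of the arms overlapped in Gzmb, Prf1 and Gzmf. Gzmb, Gzma, Gzmk and Prf1 were singled out after their values were seen. The chemokine gene Ccl5, released by cytotoxic cells, rose by 1.68 ± 0.51 (adjusted p = 0.0373), with anti-PD-1 tumor 1 at 144.8 FPKM and the next tumor at 55.5, and it missed the threshold in 7 of the 12 fits without 1 library.

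**Figure D2:**
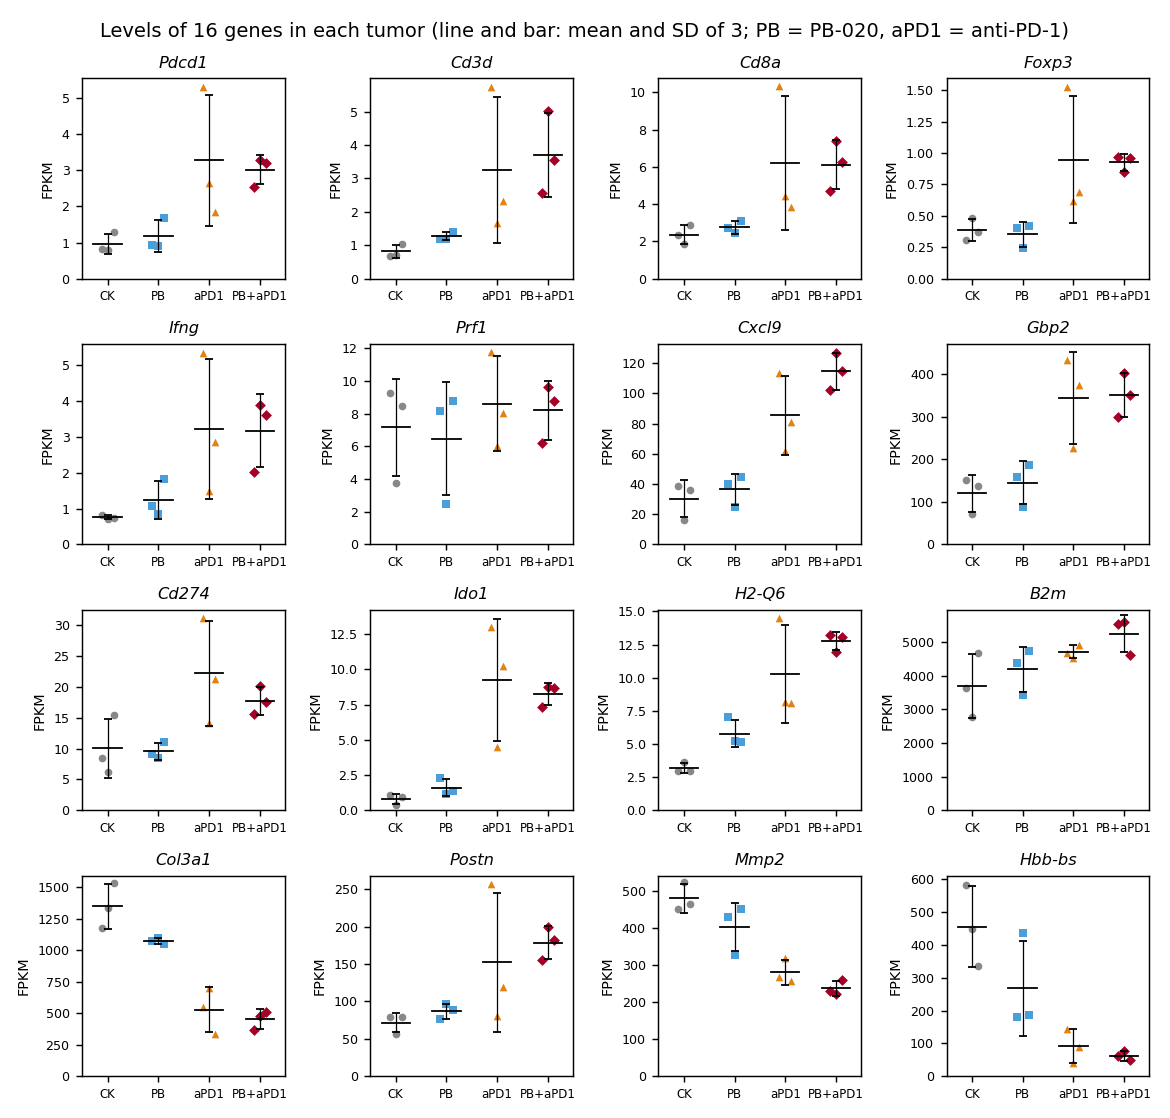
FPKM of 16 genes in each tumor on axes that start at 0, by group (CK, PB for PB-020, aPD1 for anti-PD-1, PB+aPD1 for the combination), with the mean and SD of 3 tumors as line and bar. Pdcd1, Cd3d, Foxp3, Cxcl9 and Ido1 are higher in all 6 tumors with anti-PD-1 than in any without it and Col3a1, Mmp2 and Hbb-bs lower, while the Prf1 values of the groups overlap.

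Cytokine receptors of the common gamma chain family, which carry survival signals of lymphocytes, were raised in 6 of 10 members, with a median of 0.82. Il7r, the receptor of interleukin 7, was at 4.59, 6.33 and 10.47 FPKM against 2.96, 3.04 and 3.89 (log2 change 1.12 ± 0.18, SE, adjusted p = 0.00176). The shared chain Il2rg rose by 0.85 ± 0.16, Il15ra by 0.80 ± 0.15 and Il21r by 0.88 ± 0.22. All 4 had separate arms, although those of Il21r touched in FPKM (3.04 against 3.11).

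Interferon gamma response genes rose together with Ifng. Of the 13 genes of the interferon gamma pathway tested, 9 were raised and 0 lowered, with a median log2 change of 0.66. This list holds Ifng itself, already counted above, and receptor and kinase genes of the pathway, and it shares Ciita with the class II list. Irf1, a transcription factor of the pathway, was at 131.8, 147.6 and 206.3 FPKM with anti-PD-1 and at 65.5, 96.02 and 103.5 without it (0.79 ± 0.13, SE, adjusted p = 0.00221), with separate arms. Irf8 rose by 0.66 ± 0.12, the feedback inhibitor Socs1 by 0.91 ± 0.17, and Nlrc5 and Ciita, the transactivators of MHC class I and class II, by 0.67 ± 0.12 and 0.96 ± 0.20. The receptor kinase gene Jak1 was at medians of 54.62 and 59.05 FPKM and was not called (−0.10 ± 0.04, adjusted p = 0.0904).

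The guanylate-binding proteins and immunity-related GTPases, which attack vacuoles of intracellular microbes and are classical interferon gamma targets, were the list with the largest raised share. Of 16 genes 15 were raised and 0 lowered, with a median log2 change of 1.13, and in 12 of the 16 the arms did not overlap. Gbp2 (gene 14469, chromosome 3, 142620663 to 142638008) was at 225.1, 361.3 and 432.8 FPKM with anti-PD-1 and at 70.19, 144.3 and 186 without it, a log2 change of 1.41 ± 0.26 (SE, adjusted p = 0.00432). Gbp3, Gbp7 and Tgtp1 rose by 1.32 ± 0.25, 1.16 ± 0.21 and 1.47 ± 0.32, and Igtp by 1.01 ± 0.24. The weakest calls were Tgtp2 (0.87 ± 0.25, adjusted p = 0.0317) and Irgm2 (0.70 ± 0.22, adjusted p = 0.0449), which missed the threshold in 6 and 11 of the 12 fits without 1 library. Gbp9, at medians of 34.66 and 25.82 FPKM, was the member not called (0.46 ± 0.18, adjusted p = 0.0839). Gbp and Tgtp genes have near-identical copies, and the division of reads between them is uncertain.

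The promoters of these GTPases are shown because the letters bound by the interferon factors stand close to their start sites. The sequences are the 110 bases before a start site given by RefSeq on GRCm38.p6, 5′ to 3′ on the gene's strand. Capitals mark a gamma-activated site (GAS, TTCNNNGAA) or an interferon-stimulated response element (ISRE). The ISRE was searched as GAAA, any pair of bases and GAAA again, or TTTC in the same arrangement on the other strand. Irf1 and Gbp3 have 2 start sites each, and the one with most matches was taken, so their matches were selected for. The first transcribed bases of Irgm2, Tgtp2 and Gbp7 were not found in GENCODE transcripts. The windows of Tgtp1, Gbp2 and Gbp3 overlap exons of these genes and are not printed.
Igtp, chr11:58199446-58199555, + strand: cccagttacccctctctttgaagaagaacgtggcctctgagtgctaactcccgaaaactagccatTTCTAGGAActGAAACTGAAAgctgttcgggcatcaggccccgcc
Irgm2, chr11:58214867-58214976, + strand: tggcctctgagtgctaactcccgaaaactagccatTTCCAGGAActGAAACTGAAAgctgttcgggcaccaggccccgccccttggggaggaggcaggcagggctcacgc
Tgtp2, chr11:49064213-49064322, - strand: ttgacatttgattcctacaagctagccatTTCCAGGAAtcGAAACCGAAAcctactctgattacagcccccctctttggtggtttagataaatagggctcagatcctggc
Gbp7, chr3:142530226-142530335, + strand: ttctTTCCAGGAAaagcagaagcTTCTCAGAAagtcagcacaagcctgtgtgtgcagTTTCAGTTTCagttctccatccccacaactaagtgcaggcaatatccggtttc
Irf1, chr11:53769904-53770013, + strand: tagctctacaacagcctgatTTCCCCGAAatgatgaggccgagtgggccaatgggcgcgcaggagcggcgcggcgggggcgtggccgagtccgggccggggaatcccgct
In Igtp, Irgm2, Tgtp1 and Tgtp2 the ISRE started 11 bases after the start of the GAS, and the GAS itself started 45, 75, 88 and 81 bases before the start site. In Gbp7, with matches of both kinds, this distance was 34 and 53 bases. Gbp2 and Gbp3 had ISRE matches from 59 and 45 bases before the start site, and the second of a pair of matches in Gbp3 overlapped the first.

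Over the 250 bases before the start site, all 10 of the GTPase genes with a promoter in the RefSeq table held an ISRE and 6 held a GAS. Among the 10732 tested genes with a promoter, 3.37% held an ISRE and 7.3% a GAS. The shares were 7.29% and 8.29% in raised genes and 2.85% and 7.99% in lowered genes. Of the interferon gamma pathway genes 4 of 9 held a GAS, and of the type I interferon-stimulated genes 10 of 22 held an ISRE. A match of letters is a description of the sequence, and binding was not measured.

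Type I interferon-stimulated genes overlap in function with the interferon gamma response and act against viruses. All 28 members were higher, but only 5 were called raised, against 12.6% of all genes (median log2 change 0.61). Zbp1, a nucleic acid sensor, was at 65.44, 79.81 and 96.67 FPKM against 26.18, 40.55 and 58.63, with separate arms (1.09 ± 0.22, SE, adjusted p = 0.00663). Oas3, an activator of RNA decay, rose by 1.30 ± 0.30 and Herc6, a ligase of ISG15, by 0.98 ± 0.22. Isg15 itself was at 49.61, 57.91 and 131.5 FPKM against 19.91, 39.81 and 78.25, with overlapping arms, and was not called (0.77 ± 0.37, adjusted p = 0.161). The number of called members was 16 without CK tumor 3 and 3 without any one of CK tumors 1 and 2, PB-020 tumor 2, anti-PD-1 tumors 1 and 2, and combination tumor 1.

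Antigen presentation genes were raised in almost every member measured. For MHC class I and peptide loading, 17 of 20 genes were raised and 0 lowered, with a median log2 change of 0.63, and 13 had separate arms. The proteasome activator gene Psme1 was at 199, 210.7 and 216.8 FPKM with anti-PD-1 against 118.2, 153.8 and 170.9 without it (0.49 ± 0.08, SE, adjusted p = 0.000706). Psme2 rose by 0.68 ± 0.10, the immunoproteasome subunit Psmb9 by 0.89 ± 0.16, the peptide transporter Tap1 by 0.79 ± 0.16 and Erap1, which trims peptides, by 0.59 ± 0.08. The light chain B2m was at 4544, 4800 and 5606 FPKM against 2778, 4014 and 4754 (0.35 ± 0.11, adjusted p = 0.0344) and H2-K1 at 972.2, 1043 and 1138 against 667.8, 905.4 and 1007 (0.31 ± 0.10, adjusted p = 0.0326), with overlapping arms in both, and these calls were lost in 8 and 5 of the 12 fits without 1 library. H2-Q6, a nonclassical class I gene (gene 110557, chromosome 17, 35424850 to 35430055), rose by 1.41 ± 0.17 (adjusted p = 0.000201) from a median of 4.37 to 12.53 FPKM, with reads that near-identical H2-Q copies may share.

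Of 11 MHC class II genes 9 were raised and 0 lowered, with a median of 0.72. H2-Ab1, a class II beta chain, was at 198.5, 289.2 and 414.7 FPKM against 109.8, 158.5 and 185.5 (0.92 ± 0.20, SE, adjusted p = 0.00949) with separate arms. Cd74, the invariant chain, rose by 0.86 ± 0.21 from a median of 405.3 to 709.1 FPKM. A run of 9 neighbouring tested genes on chromosome 17, from H2-DMb1 to H2-Eb1 (34153191 to 34316674), were all raised, as were 7 neighbouring H2-T genes and pseudogenes from 36003471 to 36168602. Other such runs were 8 genes at the Apol cluster of chromosome 15 (77388217 to 77928994), 7 Klr genes on chromosome 6 (129559365 to 129740484) and 6 genes around Tgtp1 and Ifi47 on chromosome 11 (48946150 to 49135387). The X chromosome also held runs, 7 genes from Vegfd to Ofd1 (164373522 to 166440704) and 6 from Sash3 to Aifm1 (48146436 to 48513563).

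Chemokines that recruit T cells were raised in 9 of 15 list members, with a median of 0.70. Cxcl9, an interferon gamma-induced ligand of CXCR3 (gene 17329, chromosome 5, 92321331 to 92328079), was at 62.11, 107.9 and 126.9 FPKM with anti-PD-1 and at 16.36, 37.32 and 44.88 without it, a log2 change of 1.58 ± 0.24 (SE, adjusted p = 0.00207). Cxcl10, a second CXCR3 ligand, rose by 1.14 ± 0.28 from a median of 80.56 to 172.2 FPKM, again with separate arms. Among the receptors Cxcr6, found on resident T cells, rose by 1.56 ± 0.30. Cxcl16, the ligand of CXCR6, rose by 0.56 ± 0.11. Ccl21a, a chemokine of lymph vessels and lymphoid stroma, had one of the largest changes of all, 2.97 ± 0.81 (adjusted p = 0.0249), on levels that ran from 0.72 to 11.69 FPKM with anti-PD-1 and from 0.2 to 1.87 without it, and its call was lost in 7 of the 12 fits without 1 library and with limma.

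Inhibitory ligands and enzymes rose in the same tumors. Of 10 genes of the PD-1 ligand and B7 list 5 were raised and 0 lowered. Cd274, which encodes PD-L1 (gene 60533, chromosome 19, 29362107 to 29388095), was at 14.09, 18.85 and 31.14 FPKM with anti-PD-1 and at 6.16, 8.82 and 15.39 without it, a log2 change of 1.03 ± 0.24 (SE, adjusted p = 0.0141). Its ranges met, since the lowest tumor with anti-PD-1 lay below the highest without. Ido1, which degrades tryptophan (gene 15930, chromosome 8, 24584133 to 24596952), was at 4.52, 8.71 and 12.98 FPKM against 0.38, 1.14 and 2.27 and changed most in this list, by 2.89 ± 0.34 (adjusted p = 0.000443). Pdcd1lg2, the PD-L2 gene, rose by 2.13 ± 0.58 (adjusted p = 0.0228) with 5.75 FPKM in anti-PD-1 tumor 1 and 0.6 to 1.8 in the other 5, and without CK tumor 2 it missed the threshold (adjusted p = 0.0532). The costimulatory ligands Cd80 and Cd86 rose by 0.75 ± 0.18 and 0.61 ± 0.12. Lgals9, a ligand of TIM-3, was at medians of 92.22 and 101.9 FPKM and was not called (−0.14 ± 0.12, adjusted p = 0.444).

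**Figure D3:**
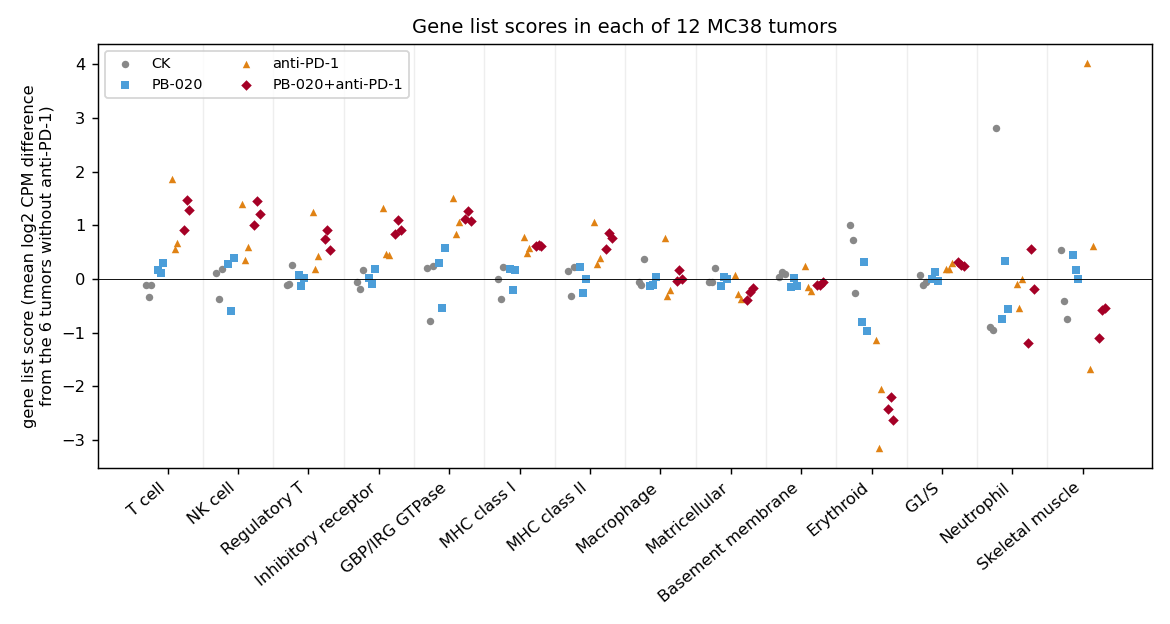
Score of 14 gene lists in each of the 12 tumors, by group, where a score is the mean over the tested members of a list of the log2 CPM minus the mean of the 6 tumors without anti-PD-1. All 6 tumors with anti-PD-1 score above the 6 without it for T cell, inhibitory receptor, GBP/IRG GTPase, MHC class I and class II lists and below them for the erythroid list, while 1 tumor stands apart for neutrophil (CK, 2.80) and for skeletal muscle (anti-PD-1, 4.02).

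Myeloid cells showed less. Of 18 macrophage genes 2 were raised and 0 lowered, against 12.6% of all genes raised, with a median of 0.16. These were Arg1, an arginine-consuming enzyme of suppressive macrophages, at 151.5, 223.5 and 329.9 FPKM against 120, 153.9 and 176.4 (0.63 ± 0.18, SE, adjusted p = 0.0262), and Fcgr1, a high-affinity antibody receptor (0.46 ± 0.14, adjusted p = 0.0306), whose arms also overlapped. Neither call held in all fits without 1 library, and without CK tumor 2, PB-020 tumor 1 or combination tumor 2 neither was made. With CK tumor 1, any PB-020 tumor, anti-PD-1 tumor 1 or combination tumor 1 left out the count was 1 or less, and without anti-PD-1 tumor 1 a further 3 macrophage genes were lowered. The lysozyme gene Lyz2, at medians of 1340 and 1012 FPKM, was not called (0.39 ± 0.14, adjusted p = 0.0617).

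All 13 dendritic cell genes were higher and 5 were raised, against 12.6% of all genes, with a median of 0.46. Il12b, a subunit of interleukin 12 and 23, was at 0.53, 0.82 and 1.43 FPKM against 0.23, 0.38 and 0.45 with separate arms (1.26 ± 0.28, SE, adjusted p = 0.00529). Siglech, a marker of plasmacytoid dendritic cells, rose by 1.30 ± 0.37, Itgax by 0.46 ± 0.12, and Xcr1 and Clec9a, markers of cross-presenting dendritic cells, by 0.73 ± 0.23 and 0.65 ± 0.21, calls lost in 6 and 8 of the 12 fits without 1 library. Siglech, Xcr1 and Clec9a were below 1 FPKM in all tumors, and Siglech missed the threshold without PB-020 tumor 1 (adjusted p = 0.0567). The count was 2 without PB-020 tumor 1 and 3 without CK tumor 2, PB-020 tumor 2 or combination tumor 2. Among B and plasma cell genes 3 were tested, and Jchain, the joining chain of secreted antibodies, had the largest log2 change of any called gene above the level of the naming rule, 3.94 ± 0.98 (adjusted p = 0.0176). It was at 0.21, 1.74 and 9.08 FPKM with anti-PD-1 and at 0.06, 0.135 and 0.52 without it, so that the arms overlapped. The Jchain call was lost with limma on log2(FPKM + 1) (adjusted p = 0.0564). Without CK tumor 3 the list had 2 raised members.

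Of 7 neutrophil genes, Mmp9 alone was called, as lowered (−1.01 ± 0.33, SE, adjusted p = 0.0472), against 13.2% of all genes lowered. Mmp9 missed the threshold in 8 of the 12 fits without 1 library, that without anti-PD-1 tumor 1 among them. S100a8, a neutrophil granule gene, was at 1.76, 4.58 and 12.41 FPKM with anti-PD-1 and at 2.42, 6.01 and 163 without it, with the high value in CK tumor 3. Its log2 change was −1.94 ± 1.23 (adjusted p = 0.281), and 0.23 without that tumor. The median over the list went from −1.01 to 0.58 without it. Of 6 mast cell genes 1, Gata2, was lowered (−0.55 ± 0.12), against 13.2% of all genes.

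**Figure D4:**
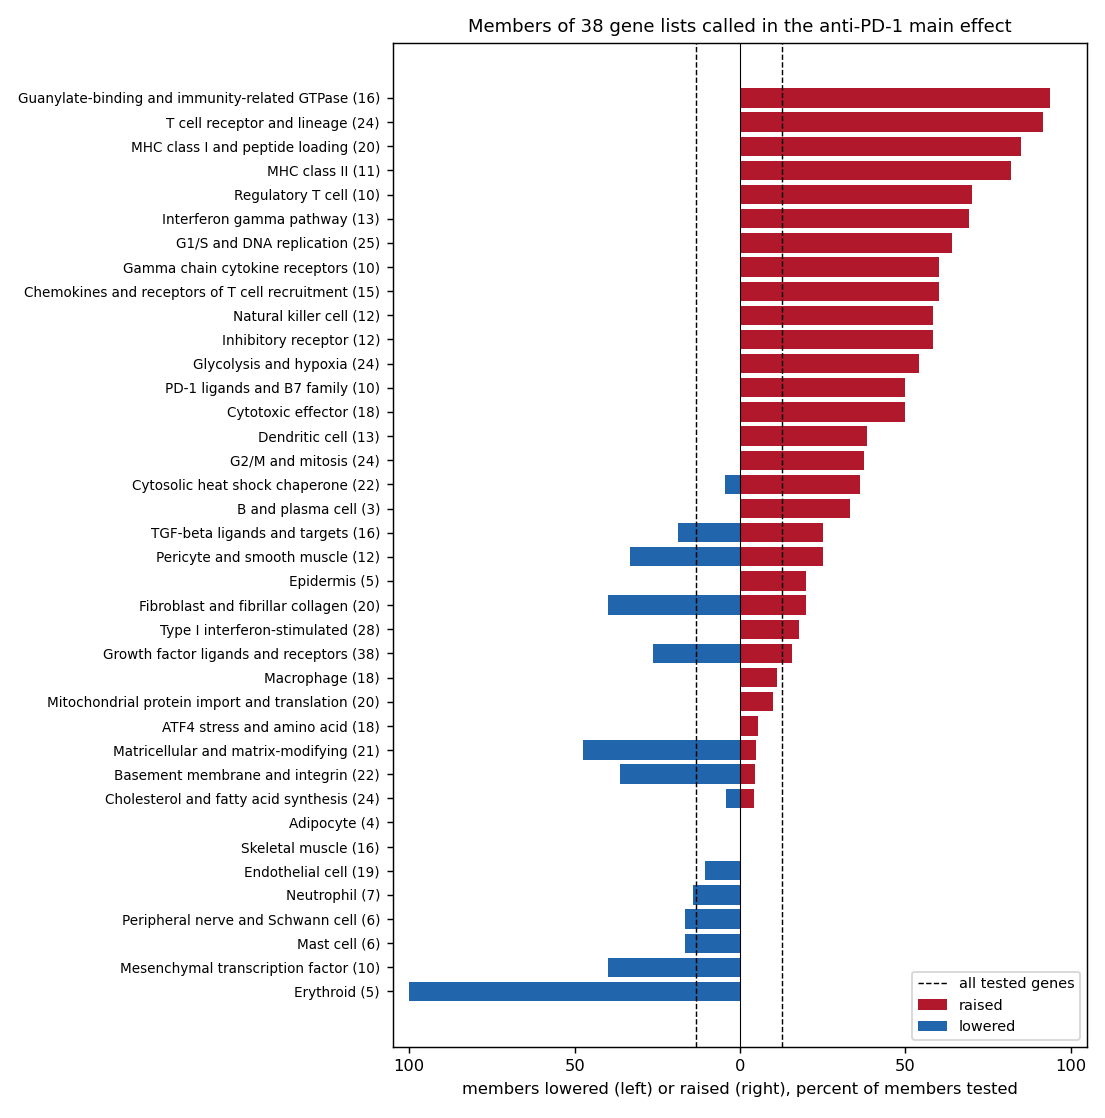
Share of the tested members of 38 gene lists (number in brackets) that were raised (right, red) or lowered (left, blue) in the anti-PD-1 main effect, with dashed lines at the shares over all tested genes, 12.6% raised and 13.2% lowered. The GTPase list has 15 of 16 members raised and the erythroid list 5 of 5 lowered, and in the fibroblast, pericyte and growth factor lists members lie on both sides.

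Stromal transcripts were divided rather than uniformly low. In the list of fibroblast and fibrillar collagen genes 8 of 20 were lowered and 4 raised, against 13.2% lowered and 12.6% raised among all genes. Thy1, among the raised ones (0.45 ± 0.11), is also counted in the T cell list. Col3a1, a fibrillar collagen (gene 12825, chromosome 1, 45311538 to 45349706), was at 337.6, 495.5 and 699.8 FPKM with anti-PD-1 and at 1049, 1137 and 1531 without it, a log2 change of −1.29 ± 0.15 (SE, adjusted p = 0.000242). Dcn, a collagen-binding proteoglycan, fell by 1.16 ± 0.16. Col6a1 and Col6a2, chains of collagen VI, fell by 0.79 ± 0.09 and 0.84 ± 0.09. None of the 6 tumors with anti-PD-1 reached the range of the others in these genes. Pdgfra, a receptor of mesenchymal cells, fell by 0.62 ± 0.08, with arms that overlapped slightly. In contrast Postn, a matricellular protein of activated fibroblasts, was at 80.98, 168.7 and 257.9 FPKM against 56.59, 79.12 and 96.39 and rose by 1.07 ± 0.25 (adjusted p = 0.0126). The collagen I genes were not called, with Col1a1 at 60.35, 136 and 339.7 FPKM against 63.74, 72.19 and 135 (0.87 ± 0.42, adjusted p = 0.155) and Col1a2 at medians of 197.7 and 163.3 (0.41 ± 0.22, adjusted p = 0.194). The number of raised members was 2 without CK tumor 2 or PB-020 tumor 1 and 7 without anti-PD-1 tumor 2.

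Among matricellular and matrix-modifying genes 10 of 21 were lowered, against 13.2% of all genes, and 1 was raised, with a median of −0.35. Mmp2, a gelatinase (gene 17390, chromosome 8, 92827290 to 92853421), was at 221.2, 257.7 and 319.2 FPKM against 328.4, 451.3 and 525.7, separate arms and a log2 change of −0.76 ± 0.08 (SE, adjusted p = 0.000157). Thbs3, a thrombospondin, fell by 0.49 ± 0.06, Vtn (vitronectin) by 1.41 ± 0.27 and Fn1 (fibronectin) by 0.47 ± 0.13. Thbs2 was the raised member (1.23 ± 0.32, adjusted p = 0.0212), with 32.15 FPKM in anti-PD-1 tumor 1 and at most 15.75 elsewhere, and it missed the threshold without CK tumor 2 (adjusted p = 0.0514). The abundant osteopontin gene Spp1 was not called (0.19 ± 0.10, adjusted p = 0.154).

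Basement membrane and integrin genes were lowered in 8 of 22 members, against 13.2% of all genes, and raised in 1, with a median of −0.21. The lowered number was 5 without CK tumor 2. Lamc1, a laminin chain, was at 38.86, 44.93 and 52.15 FPKM against 54.13, 58.45 and 68.63 with separate arms (−0.39 ± 0.06, SE, adjusted p = 0.000521). Lamb1 fell by 0.37 ± 0.07 and the abundant integrin Itgb1 by 0.19 ± 0.06, a call lost in 8 of the 12 fits without 1 library. Col4a1, of the basement membrane collagen, was not called (−0.27 ± 0.11, adjusted p = 0.0909).

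Growth factor ligands and receptors, with 38 members tested, had 10 lowered and 6 raised, against 13.2% lowered and 12.6% raised among all genes. The raised count was thus near that share. Fgf1, a fibroblast growth factor, was at 0.14, 0.36 and 0.66 FPKM against 0.84, 0.985 and 1.61 with separate arms (−1.48 ± 0.22, SE, adjusted p = 0.000643). Kitl, the ligand of the KIT receptor, fell by 0.75 ± 0.14. Irs1, an adaptor of the insulin and IGF-1 receptors, fell by 0.35 ± 0.05, from a median of 2.8 to 2.16 FPKM, with separate arms, and the receptor Pdgfrb by 0.35 ± 0.05. The raised members included Angpt1, a ligand of the vascular receptor TIE2 (1.76 ± 0.37, at 0.2 to 0.79 FPKM against 0.03 to 0.21), and Hbegf, an EGF receptor ligand (0.73 ± 0.15). The most abundant of them, Vegfa, was at 112.2 to 142.9 FPKM against 91.96 to 132.1 and was not called (0.19 ± 0.09, adjusted p = 0.132).

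Of 16 genes of the TGF-beta ligands and targets list 4 were raised and 3 lowered, against 12.6% raised and 13.2% lowered among all genes. Inhba, an activin subunit, rose by 0.61 ± 0.13 and Tgfbr3, the betaglycan coreceptor, fell by 0.88 ± 0.12. The raised number was 2 without CK tumor 1 or 2, PB-020 tumor 1 or 3, anti-PD-1 tumor 1 or 3, or combination tumor 3. Of 10 mesenchymal transcription factors 4 were lowered, among them Tcf4 (−0.50 ± 0.07) and Zeb2 (−0.33 ± 0.05), both with separate arms (touching in FPKM for Zeb2, 28.91 against 28.83), while the call of Snai2 (−0.30 ± 0.10, adjusted p = 0.0411) was lost in 8 of the 12 fits without 1 library. Without PB-020 tumor 1 or 3, anti-PD-1 tumor 1, or combination tumor 2 or 3 the number was 2.

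Vascular and mural cell genes moved in both directions. In the endothelial list 2 of 19 were lowered, against 13.2% of all genes, namely Nos3 (−0.45 ± 0.10, SE, adjusted p = 0.00682) and Cldn5 (−0.61 ± 0.21, adjusted p = 0.0474), and Cdh5, the VE-cadherin gene, was not called (−0.33 ± 0.16, adjusted p = 0.154). Cldn5 missed the threshold in 7 of the 12 fits without 1 library, that without CK tumor 3 among them. In the pericyte and smooth muscle list Kcnj8 and Abcc9, channel subunits of pericytes, fell by 0.99 ± 0.20 and 0.68 ± 0.14, and Acta2 and Tagln, contractile genes that activated fibroblasts also express, rose by 0.65 ± 0.17 and 0.75 ± 0.21, the latter a call lost in 4 of the 12 fits without 1 library. Over the list 4 of 12 genes were lowered and 3 raised, against 13.2% lowered and 12.6% raised among all genes. The raised number was 5 without anti-PD-1 tumor 2.

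Red cell transcripts had the largest fall of any list, with 5 of 5 lowered and a median of −2.25. Hbb-bs, an adult beta globin (gene 100503605, chromosome 7, 103826523 to 103827928), was at 40.75, 69.2 and 143.8 FPKM with anti-PD-1 and at 180.9, 385.4 and 583.4 without it, a log2 change of −2.20 ± 0.35 (SE, adjusted p = 0.00265). The alpha globins Hba-a1 and Hba-a2, near-identical copies, fell by 2.21 ± 0.39 and 2.25 ± 0.41. Alas2, the heme synthesis enzyme of erythroid cells, fell by 2.44 ± 0.42 (adjusted p = 0.00221), with anti-PD-1 tumor 1 the highest of its arm at 1.52 FPKM and the other 5 at or below 0.5. The globin arms were separate.

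Apart from the lists, the 3 tumors with anti-PD-1 lay above the 3 without it in both sets of 6 tumors in 838 genes (6.18%) and below them in 1041 (7.68%). The 10 raised genes with the smallest p that were separated in this way were LOC108167440, Apobec3, Acsl5, Lrp8, Gpr171, Atm, H2-Q6, Coro2a, Apol10b and Unc13d. LOC108167440 (chromosome 7, 75769038 to 75782120) was at 119.7, 129.3 and 159 FPKM against 70.43, 75.52 and 95.45 (0.81 ± 0.07, SE, adjusted p = 8.41e-05). Apobec3, a cytidine deaminase that restricts retroviruses (chromosome 15, 79892058 to 79918218), was at 115.1, 127.6 and 138.3 FPKM against 78.35, 85.67 and 92.89 (0.51 ± 0.06, adjusted p = 0.000157). Acsl5, which activates fatty acids, rose by 0.42 ± 0.05 and the DNA damage kinase gene Atm by 0.43 ± 0.05. Gpr171, a G protein-coupled receptor of T cells, went from a median of 1.5 to 4.79 FPKM (1.58 ± 0.19), and Unc13d, needed for the release of cytotoxic granules, from 2.94 to 5.34 (0.87 ± 0.11). Lrp8, Coro2a and Apol10b rose by 0.66 ± 0.08, 0.69 ± 0.08 and 1.39 ± 0.16.

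The 10 lowered genes by the same rule were Acpp, Arhgef28, Lbp, C1qtnf1, Sorcs2, Rnf167, Rftn2, Nova1, Dtx4 and Ednrb. Acpp, a phosphatase that forms adenosine from AMP (chromosome 9, 104288240 to 104337722), was at 0.5, 0.59 and 1.04 FPKM with anti-PD-1 and at 1.8, 2.54 and 3.63 without it (−2.0 ± 0.18, SE, adjusted p = 8.41e-05). Lbp, the lipopolysaccharide-binding protein (chromosome 2, 158306493 to 158332852), was at 5.99, 8.2 and 10.06 FPKM against 15.41, 22.76 and 24.04 (−1.39 ± 0.12, adjusted p = 0.000101). Ednrb, an endothelin receptor, went from a median of 5.05 to 1.79 FPKM (−1.49 ± 0.15), and Arhgef28, an exchange factor of RhoA, from 3.38 to 1.59 (−1.0 ± 0.09). The other 6 fell by between 0.49 ± 0.05 (Rnf167 and Dtx4) and 0.96 ± 0.09 (C1qtnf1). In all 20 genes the 6 tumors of an arm lay on one side of the other 6, which their choice by small p and by separation in both sets of 6 tumors favours.

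By size of change, the raised genes with the largest log2 changes were, after Jchain, Brinp3 (3.52 ± 0.45, at 0.5 to 2.52 FPKM against 0.05 to 0.18), Tnmd (3.34 ± 0.88), Col6a5 (3.32 ± 0.90) and Ccl21a. Brinp3 alone of these had separate arms, and Col6a5 missed the threshold without CK tumor 2. The lowered ones were Serpinb2, an inhibitor of plasminogen activators (−2.80 ± 0.81, SE, adjusted p = 0.0309, lost in 6 of the 12 fits without 1 library), Alas2, Scml4 (−2.44 ± 0.40), Enpp3 (−2.43 ± 0.28) and the lectin gene Cd209f (−2.38 ± 0.62). Enpp3, an ectonucleotidase found on mast cells and basophils, was at 0.51, 0.76 and 2.1 FPKM with anti-PD-1 and at 3.85, 4.42 and 7.99 without it, and the arms of Scml4 were separate as well, while those of Cd209f were separate in log2 CPM and touched in FPKM (1.07 against 1).

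Proliferation genes were raised by small amounts. Of 25 genes of G1/S and DNA replication 16 were raised and 0 lowered, with a median of 0.24, and all 25 were higher. Cdt1, a licensing factor of replication origins, was at 36.32, 39.49 and 43.1 FPKM against 30.52, 31.98 and 33.7 with separate arms (0.30 ± 0.05, SE, adjusted p = 0.000827). Pola1, the catalytic subunit of DNA polymerase alpha, which lies on the X chromosome, rose by 0.71 ± 0.10 and Rrm2, of ribonucleotide reductase, by 0.43 ± 0.07. Pcna, the sliding clamp, was at medians of 318.6 and 285.9 FPKM and was not called (0.15 ± 0.07, adjusted p = 0.1). Of 24 genes of G2/M and mitosis 9 were raised, against 12.6% of all genes, 0 lowered and all 24 higher, with a median of 0.21. Top2a, topoisomerase II alpha, was at 210.9, 232.3 and 254.4 FPKM against 143.1, 164.4 and 219.7 (0.49 ± 0.09), and Ccna2, cyclin A2, rose by 0.31 ± 0.06. The proliferation marker Mki67 (0.30 ± 0.10, adjusted p = 0.0354) missed the threshold in 7 of the 12 fits without 1 library. The G2/M count was 5 without PB-020 tumor 1, 16 without PB-020 tumor 2 and 14 with DESeq2.

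Glycolysis and hypoxia genes were raised in 13 of 24 members and lowered in 0, with a median of 0.21. Pgk1, phosphoglycerate kinase, also X-linked, was at 733.3, 889.6 and 927 FPKM against 453.6, 591.5 and 694.6 with separate arms (0.58 ± 0.09, SE, adjusted p = 0.000785). The phosphofructokinases Pfkp and Pfkl rose by 0.41 ± 0.08 and 0.46 ± 0.09, hexokinase Hk2 by 0.52 ± 0.14 and the glucose transporter Slc2a1 by 0.44 ± 0.13 (adjusted p = 0.0306), whose call was lost in 6 of the 12 fits without 1 library. The count was 7 without CK tumor 2 and 8 without CK tumor 3, PB-020 tumor 3 or anti-PD-1 tumor 3. Of 22 cytosolic heat shock chaperones 8 were raised, against 12.6% of all genes, and 1 lowered. Hsp90aa1 was at 412.3, 506.1 and 593.3 FPKM against 328.2, 384.6 and 487 (0.41 ± 0.08, adjusted p = 0.00374). The raised number was 4 without anti-PD-1 tumor 3 and 5 without CK tumor 2, PB-020 tumor 3 or combination tumor 1. Other metabolic lists stayed near or below the background. Of 18 ATF4 stress and amino acid genes 1 was raised, of 24 cholesterol and fatty acid synthesis genes 1 was raised (Dhcr7) and 1 lowered (Scd1), and of 20 mitochondrial import and translation genes 2 were raised. Without anti-PD-1 tumor 1 the raised numbers were 0, 3 and 1, and without CK tumor 3 they were 0, 1 and 1, with 2 ATF4 genes lowered. Of the mitochondrial genes raised, 1 was Timm8a1, an X-linked carrier of inner membrane proteins (0.48 ± 0.08, adjusted p = 0.000881).

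Genes of the X chromosome stood apart from those of the autosomes, a pattern looked for after X-linked genes had been seen among the called ones. Of 428 X-linked genes tested, 188 (43.9%) were raised and 15 (3.5%) lowered, against 11.6% and 13.5% of 13066 autosomal genes. X-linked genes were thus 3.16% of the genes tested and 11% of the raised genes. The median log2 change was 0.22 on the X chromosome and −0.01 on the autosomes, and 366 X-linked genes (85.5%) were higher with anti-PD-1. Most of the changes were small, since 154 of the 188 were under 1.5-fold. No autosome came close. The next highest raised share was 17.8% on chromosome 15, which holds the Apol cluster, and the highest lowered share was 19.6% on chromosome 8.

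The X-linked shift was present in tumors with and without PB-020. The median change of X-linked genes was 0.25 for anti-PD-1 against CK and 0.18 for the combination against PB-020. Relative to the mean of the 6 tumors without the antibody, the median X-linked gene lay 0.12 to 0.29 higher (log2 CPM) in each tumor with anti-PD-1 and between −0.12 and 0.13 in the others. The arms overlapped through PB-020 tumor 2 (0.13) and anti-PD-1 tumor 2 (0.12). Along the chromosome the shift did not have one site, with medians of 0.17 to 0.29 in each of 9 windows of 20 Mb. Leaving out the genes of the lists above changed little, with 181 of the other 417 raised (43.4%). The difference between the X-linked and the autosomal median was 0.18 to 0.26 in all 26 fits, including those on 6 libraries.

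The X-linked genes below were picked, after their values were seen, from those with the smallest p and separate arms. Rp2 (0.43 ± 0.06) and Cstf2 (0.51 ± 0.07) had a smaller p than any of them but Gk. Gk, glycerol kinase, was at 6.17, 7.45 and 8.72 FPKM with anti-PD-1 and at 4.58, 5.25 and 6.06 without it (0.52 ± 0.07, SE, adjusted p = 0.000296). Cenpi, a centromere protein, rose by 0.66 ± 0.09, Fancb, of the Fanconi DNA repair complex, by 0.74 ± 0.10, the phosphatase gene Dusp9 by 0.63 ± 0.09 and Suv39h1, a histone methyltransferase, by 0.42 ± 0.06. In each the 6 tumors with anti-PD-1 lay above the 6 without, in log2 CPM for Fancb, whose FPKM touched (5.73 against 5.84). Of Y-linked genes 4 passed the filter although the mice were female. They were higher by 0.33 ± 0.15 (Ddx3y, adjusted p = 0.119), 0.25 ± 0.14 (Eif2s3y, adjusted p = 0.196), 0.29 ± 0.21 (Kdm5d, adjusted p = 0.332) and 0.47 ± 0.21 (Uty, adjusted p = 0.111), and 0 of the 4 were called with edgeR. Eif2s3y was at 4.51 to 9.08 FPKM with anti-PD-1 and at 4.31 to 6.16 without it. Whether tumor or host cells carried the X-linked shift was not tested.

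**Figure D5:**
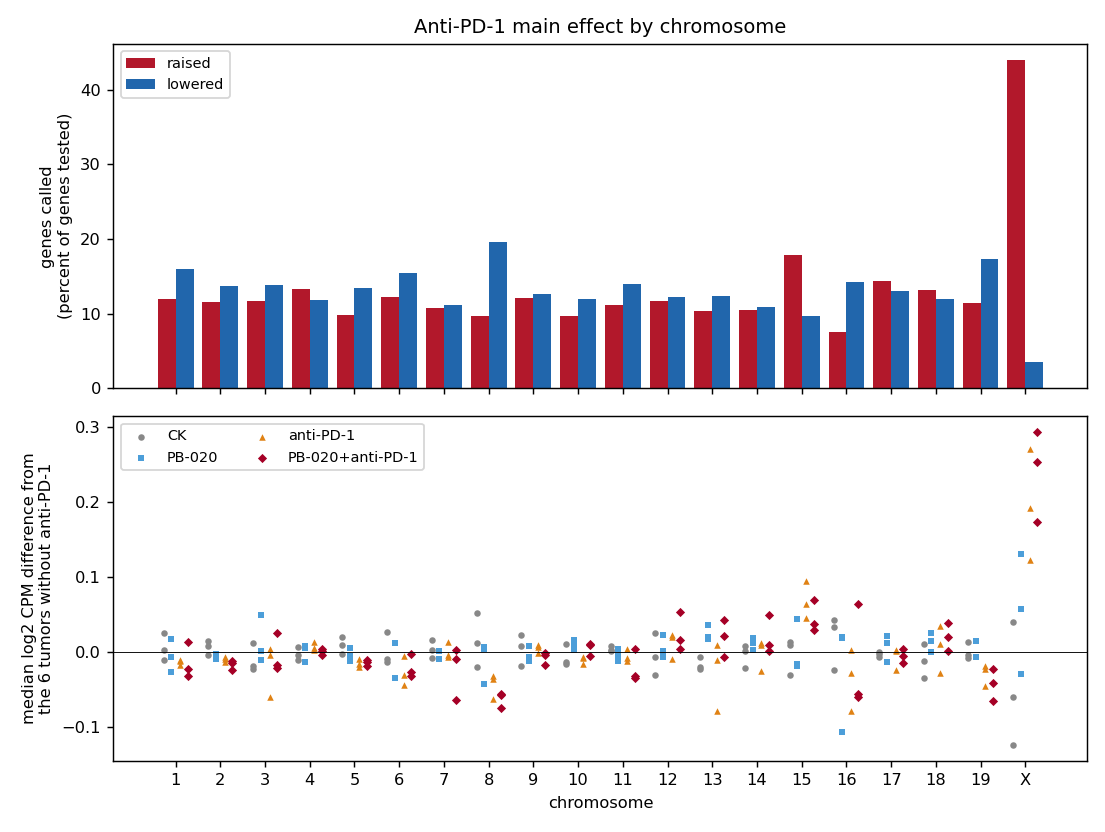
Top, percent of tested genes on each chromosome that were raised (red) or lowered (blue) in the anti-PD-1 main effect; bottom, median log2 CPM difference of each chromosome's genes in each tumor from the mean of the 6 tumors without anti-PD-1, by group. The X chromosome has 43.9% of its genes raised and 3.5% lowered, and its median is 0.12 to 0.29 in the tumors with anti-PD-1 and −0.12 to 0.13 in the others.

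Markers of other tissues that a dissected tumor can hold were not raised as lists. Of 16 skeletal muscle genes 0 were called with edgeR, with the heavy chain gene Myh4 at 0.06, 0.355 and 21.56 FPKM with anti-PD-1 and at 0.1, 0.17 and 0.25 without it, the high value in anti-PD-1 tumor 1 (3.92 ± 1.48, adjusted p = 0.0814). None of 4 adipocyte genes was called either. Of 5 epidermal genes Krt14 alone was raised, at 130.5, 172.7 and 206.4 FPKM against 76.03, 110.2 and 125.3 with separate arms (0.76 ± 0.12, SE, adjusted p = 0.0014). Krt5, of the same list, was at 0, 0.16 and 6.77 FPKM against 0, 0.345 and 4.94 and was not called. Which cells carried Krt14 was not tested. Of 6 genes of peripheral nerve 1 was lowered, against 13.2% of all genes. Without anti-PD-1 tumor 1 the list counts given above for T cell (21 of 24), NK cell (7 of 12), inhibitory receptor (7 of 12), GTPase (13 of 16), MHC class I (13 of 20) and class II genes (7 of 11) changed by less than 1.5 times, and 3 muscle genes were then lowered. When only the combination and PB-020 libraries were fitted, 8 muscle genes were lowered and 1 was raised.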

How the data were processed

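RNA of 12 MC38 tumors, 3 in each of 4 groups by the labels, was sequenced as 150-base read pairs. The authors aligned reads with Bowtie2 and quantified genes with RSEM; the submitters' processing notes also name HISAT and GRCm38.p6, while the methods name mm10 or hg19. The table deposited by the authors gives each expected count (the RSEM estimate of fragments per gene), FPKM and TPM per gene and tumor, and 0 of its per-sample columns were left unmapped. Expected counts, of which 91% were whole, were rounded, filtered with filterByExpr (minimum count 10) and tested with edgeR 4.0.16 in R 4.3.3 (TMM, quasi-likelihood, PB-020 as covariate, Benjamini-Hochberg adjustment). Changes with and without PB-020 came from a model of 4 group means. FPKM describes single tumors, and mean TPM ranked list members for naming. Standard errors were the absolute log2 change divided by the square root of F. Log2 CPM used a prior count of 2. Alternatives were DESeq2 1.42.0, limma 3.58.1 on log2 FPKM with pseudocounts of 1 and 0.1, other scalings and filters (no filter, mean count 50), group means, no covariate, a replicate block, each library left out, and 6 libraries alone. On simulated counts with 200 changed genes, the test recovered 44 of 67 changed 1.5-fold, 54 of 67 changed 2-fold and 62 of 66 changed 3-fold, and called 11 of 13363 unchanged genes. These shares do not carry over to the tumors, where 3504 genes were called and the adjustment is therefore less strict. No gene was simulated below 1.5-fold, and among the called genes only 563 raised and 299 lowered ones were past that size.

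Named genes were Pdcd1, Igf1r and Cd274; the 10 raised and 10 lowered genes with the smallest p, separated in both sets of 6 tumors; the 5 raised and 5 lowered genes of largest change; and, for each list, up to 4 members of smallest p, the most abundant and the most abundant not called. Of the 198 genes examined one by one, 49 lay outside this rule and were chosen after their values were seen, among them Cd8a, Cd4, Gzmb, Prf1, Postn, Col1a1, Mki67, Acta2 and the X-linked and Y-linked genes. The members and lists were chosen with earlier results of these data known. The labels do not say whether replicates are separate mice, so p-values measure the spread between these samples, which may be technical. Promoters came from RefSeq on GRCm38.p6, to which 18091 of 18211 genes matched by gene number. Depth was 16545394 to 17217035 counts a library, and low counts limit precision in genes under 1 FPKM. Some results are not reported here. Reads of near-identical genes were divided by RSEM and are uncertain there.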

Additional observations from a re-analysis of the deposited data

Results flagged for a closer look

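Within an arm of 6 tumors, 41 values stood apart from the others by more than Dixon's 95% critical ratio, of 472 groups examined (198 genes and 38 list scores in 2 arms). Chance flags about 1 in 20 groups. The distribution over tumors was uneven, with 19 of them in anti-PD-1 tumor 1 and 9 in CK tumor 3.

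In anti-PD-1 tumor 1 the highest values were, in FPKM, 5.75 for Pdcd1lg2, 3.96 for Cd4, 144.8 for Ccl5, 25.79 for Irf8, 106.5 for Irgm2, 118.2 for Tap1, 107.1 for Il2rg and 7.56 for Il21r, all genes of T cells or of the interferon response. The same tumor was highest of its arm for the matrix genes Fn1 (201.1), Thbs2 (32.15) and Col6a5 (0.96), for the red cell genes Hba-a1 (136.3), Hba-a2 (86.78) and Alas2 (1.52), and for Brinp3 (2.52), Hk2 (22.89) and the muscle gene Myh4 (21.56). Its scores for basement membrane and integrin genes (0.23) and TGF-beta genes (0.16) were also the highest of the arm.

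In CK tumor 3 the neutrophil genes S100a8 (163 FPKM) and Mmp9 (19.63) were the highest of the tumors without anti-PD-1, as were Fcgr1 (15.99), Cxcl16 (39.57), Kcnj8 (3.88) and Ddx3y (3.1). Its scores stood apart for neutrophil (2.80), macrophage (0.37) and B and plasma cell genes (1.04).

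Of the other tumors, anti-PD-1 tumor 2 was highest of its arm for Col6a1 (269.6 FPKM), Col6a2 (167.8), C1qtnf1 (13.36) and Enpp3 (2.1), all genes lowered with anti-PD-1. Combination tumor 1 was highest for Herc6 (14.98), Isg15 (131.5) and Atm (9.15). Of the tumors without the antibody, PB-020 tumor 2 was highest for Gzmk (1.57) and Cenpe (29.65), PB-020 tumor 3 for Ifng (1.84) and CK tumor 2 for Lef1 (0.98). Combination tumor 2 had an epidermis score of 2.99, and PB-020 tumor 1 the lowest peripheral nerve score of its arm (−0.17).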

How the results depend on the processing

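The number of called genes was 3106 to 3715 under the 11 other settings on all 12 libraries, and 2474 (without CK tumor 2) to 3800 (without anti-PD-1 tumor 2) with 1 library left out, where raised genes numbered 1171 to 1875, lowered genes 1303 to 1925, and genes past the thresholds of the methods 904 to 1277. Against this, anti-PD-1 against CK alone gave 3 (1 raised, 2 lowered) and the combination against PB-020 alone 1519 (792 raised, 727 lowered), from 6 samples each. Genes past the thresholds of the methods numbered 439 with limma on log2(FPKM + 1) and 586 with the strict filter. Raised genes were 48.9% of the calls, 44% and 44.4% with limma at pseudocounts of 1 and 0.1, and 33.3% of the 3 calls above. A test per gene on FPKM put 943 genes past the thresholds, 61.5% of them raised. The interaction had 1 called gene without PB-020 tumor 3 and 0 under the other settings (0 to 1 with 1 library left out).

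Replicate numbers are shared between groups but did not pair the tumors. Correlations of deviations ran from −0.21 to 0.289 over 18 pairs, 2 of them over 0.1, and 3 of 12 libraries correlated best with their own number. With the replicate number as a block 3113 genes were called (1506 raised, 1607 lowered) and 1038 were past the thresholds of the methods.

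Of 164 called genes examined one by one, 1747 of 1781 values on all 12 libraries and 1809 of 1968 with 1 library left out stayed past the threshold in the same direction; 0 reversed, and 122 of 328 stayed past it in 6 libraries alone. Among genes not called, Lef1 ranged from −0.13 (without anti-PD-1 tumor 1) to 0.24 (without CK tumor 2) with 1 library left out, turned negative in 5 of these 12 fits and in anti-PD-1 against CK alone (−0.35), and S100a8 ranged from −2.62 (without combination tumor 2) to 0.23 (without CK tumor 3). The cause was not tested. The strict filter, which tests fewer genes, left 12 raised of 13 T cell genes tested, 4 of 8 inhibitory receptors, 4 of 6 regulatory T cell and 3 of 4 NK cell genes.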
